A study of Mus musculus with 14 samples.

Results

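The genes described here are 158 vesicle trafficking genes of the mouse, chosen by symbol alone from 6288 genes that were measured and had a single symbol in the platform annotation. A gene was taken when its symbol began with Rab, Arf, Arl, Sec or Snap and a digit, with Cop and a coatomer subunit letter, with a subunit letter of the adaptors AP-1 to AP-4, or with Vps, Snx, Stx, Vamp, Trappc, Exoc or Chmp. The Cops genes of the signalosome were left out. The 158 genes were measured by 181 probes, 137 of them by 1 probe and 21 by 2 or more, and all 158 could be tested. The rule takes in some proteins that are not part of the trafficking machinery. Vps72 belongs to chromatin complexes that deposit a histone variant, Sec14l2 binds lipids, and Sec11c, Sec61a2, Sec62 and Sec63 act in protein entry into the endoplasmic reticulum.

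On cDNA arrays with 2 channels, spleen RNA of the strain AcB55 was measured 6 times and that of AcB61 8 times, with A/J spleen RNA always in the other channel. Both strains are recombinant congenic lines, in which an A/J genome holds fixed stretches of C57BL/6, and the series concerns resistance to malaria. Infection, treatment, sex and age of the mice, the dye of each channel, and which arrays shared a mouse or an RNA pool are not given in the labels, and A/J was never set against A/J. Values are log2 ratios, read as strain over A/J because the labels name the strain as channel 1 and A/J as channel 2. That direction is likely but not stated, and base 2 is assumed. Means are given ± SD. They cover all arrays of the strain (n = 6 in AcB55, n = 8 in AcB61) except where n is stated. A difference was called when its adjusted p was under 0.05 (limma, two-sided, Benjamini-Hochberg over 13045 features). These p-values rest only on how arrays of a strain vary, part of which may be technical, and variation among A/J mice does not enter them. The precision is limited by the number of arrays. In spleen, a mixture of cells, fewer cells of a type and less RNA per cell cannot be told apart.

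Proteins and lipids move between the compartments of a cell in vesicles. Coats bend the membrane and collect cargo: COPII buds from the endoplasmic reticulum, COPI returns material from the Golgi, and clathrin with its adaptors works at the trans-Golgi network, endosomes and plasma membrane. Arf, Arl and Rab GTPases mark each membrane, tethers catch the vesicle and SNAREs fuse it, while retromer, sorting nexins and ESCRT decide whether endosomal cargo is recycled or degraded. In spleen these routes carry antibody out of plasma cells, antigen and dying red cells into macrophages, and granule contents to the surface of granulocytes, cytotoxic cells and platelets.

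The arrays of a strain did not all resemble each other. AcB61 replicates 2, 6 and 8 correlated with each other at r = 0.788 to 0.833 over all features, and replicates 3, 5 and 7 at 0.704 to 0.795, but the correlation between these sets was only -0.089 to 0.151. AcB61 replicates 1 and 4 correlated with the other 6 at 0.365 to 0.638. AcB55 replicates 1 and 2 correlated with AcB61 arrays at 0.210 to 0.521, against -0.0047 to 0.267 for AcB55 replicates 3 to 6. The tests of the 158 genes were therefore repeated without AcB61 replicates 2, 6 and 8, without AcB61 replicates 3, 5 and 7, and without AcB55 replicates 1 and 2. Cell type lists moved as well. All 15 measured genes of dividing cells rose in both strains, as Mki67 did (1.83 ± 0.25 in AcB55 and 0.82 ± 0.20 in AcB61). Of 9 measured genes of red cell precursors, 7 rose in each strain, such as Slc4a1 (1.28 ± 0.31, n = 5, and 1.07 ± 0.23), and 1 fell in AcB55. Of 6 macrophage genes, 5 fell and 1 rose in AcB55, and 3 fell and 1 rose in AcB61. Xbp1, the regulator of secretory capacity in plasma cells, fell by 1.01 ± 0.25 (n = 5) and by 0.49 ± 0.34, and of the 3 measured plasma cell genes 2 fell in AcB55 and 1 in AcB61. Granulocyte genes averaged 1.05 and 1.31 on AcB55 replicates 1 and 2, against -0.045 to 0.15 on the other AcB55 arrays and 0.27 to 0.75 in AcB61. Of the lists that define spleen, B cells were measured by Blnk alone, which fell in both strains, T and NK cells by Satb1 alone, which fell in AcB55, and macrophages by 6 of 11 genes. Ratios give no level, so the tissue could not be checked by abundance. The part of these lists in the trafficking results was not tested.

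Relative to A/J, more trafficking genes fell than rose in AcB55. In AcB55, 27 of 158 genes (17.1%) were lower and 10 (6.33%) were higher. The same test called 10.9% of all features lower and 9.77% higher. Either way, 37 genes (23.4%) passed, beside 20.7% of all features. In AcB61, 25 genes (15.8%) passed, beside 23.8% of all features. There 11 genes (6.96%) were lower and 14 (8.86%) higher, both below the 13.3% and 10.5% of all features, so these counts are not a result about trafficking genes. Between the strains, 10 genes (6.33%) were higher in AcB61 than in AcB55 and 6 (3.80%) were lower, beside 5.29% and 6.98% of all features, or 16 (10.1%) either way beside 12.3%, so these shares are near the background. Both strains were set against A/J, and the difference between them uses the same arrays, so the 3 comparisons are not independent of each other. Counts by role below are to be read beside these shares of all features. They rest on few genes and were not tested as groups.

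Most changes were small. The median log2 ratio of the 158 genes was -0.041 in AcB55, with 96 genes below 0 and 62 above, beside -0.0019 over all features. It was 0.0016 in AcB61, with 77 below and 81 above, beside -0.00067. The median difference, AcB61 minus AcB55, was 0.058, with 111 genes above 0, beside 0.012. Only Rab6a and Ap3d1 in AcB55 and Snx33 in AcB61 passed the test with a change of 1.5-fold or more, as did Snx33 and Ap3d1 between the strains. On all 6 AcB55 arrays 31 genes lay below 0 and 10 above, and on all 8 AcB61 arrays 6 and 7 did. These counts need agreement of unequal numbers of arrays and were not made over all features. They therefore do not compare the strains and are not a result about trafficking genes. The genes varied among arrays about as much as other features, with a median SD of 0.13 in AcB55 (0.15 over all features) and 0.16 in AcB61 (0.17). Altogether 56 genes passed at least 1 comparison and 102 passed none. The same count was not made over all features, so these numbers are not a result about trafficking genes.

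**Figure D1:**
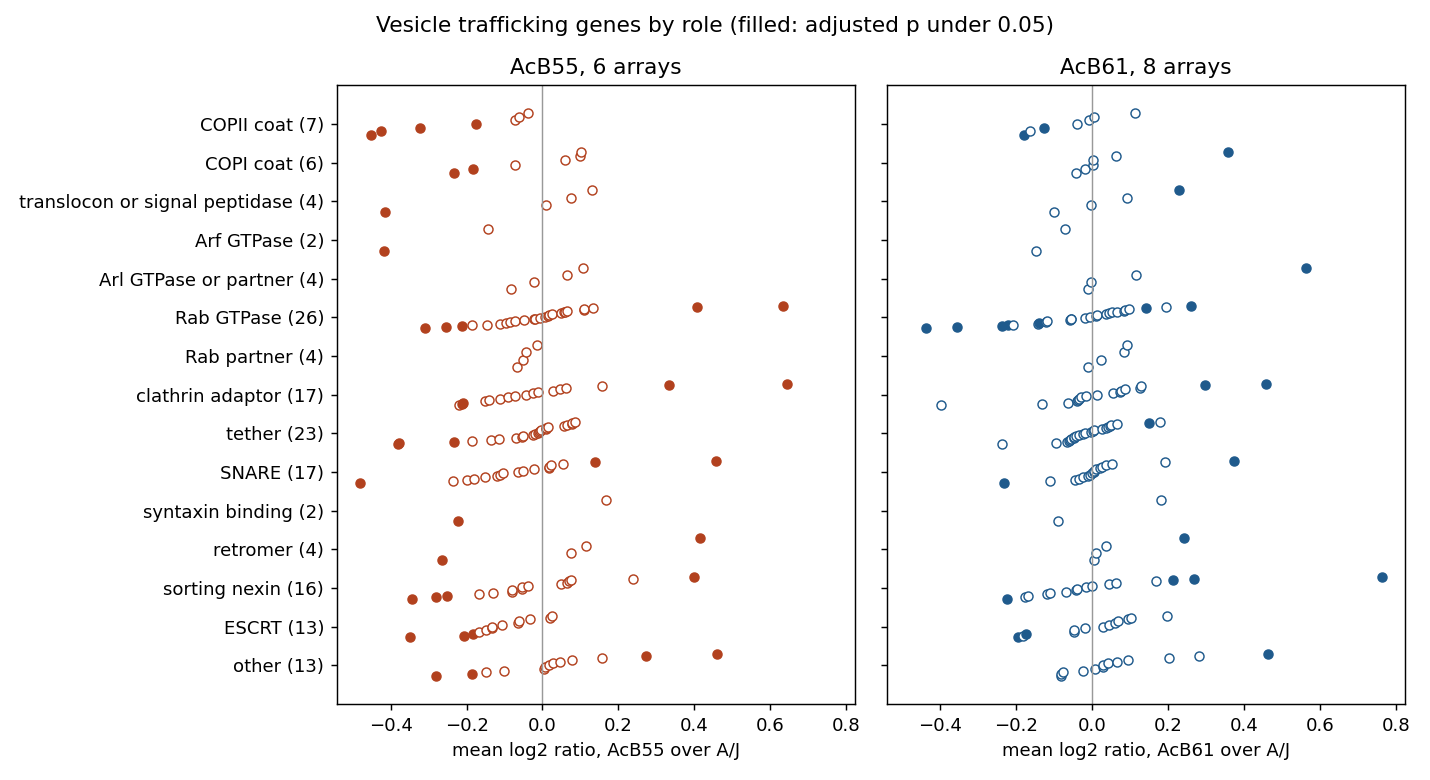
Mean log2 ratio of strain over A/J (horizontal axis) of each of the 158 genes, with a row for each role and a panel for each strain; filled points passed the test (adjusted p under 0.05). COPII coat genes lie below 0 in AcB55, down to -0.45 for Sec31a, while Snx33 at 0.76 and Arl2 at 0.56 are the highest points in AcB61.

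Of the 7 measured genes of the COPII coat and its exit sites, 4 fell in AcB55 (10.9% of all features), none rose, and all 7 means were negative. Sec31a, a protein of the outer cage, ranged from -0.71 to -0.15 on AcB55 arrays with a median of -0.50, and its mean was -0.45 ± 0.23 (adjusted p = 0.00016). Sec24c, a cargo receptor of the inner coat, ranged from -0.64 to -0.24 around -0.41 (mean -0.43 ± 0.16, adjusted p = 0.000668). Sec16a, the scaffold of the exit sites where COPII forms, ranged from -0.43 to -0.21 around -0.32 (mean -0.32 ± 0.086, adjusted p = 0.000218). All 6 AcB55 arrays were below 0 for each of these genes, and their calls held under every alternative tried. Sec24d, a paralogue of Sec24c, fell less (-0.18 ± 0.11, adjusted p = 0.019), and its call was lost without AcB55 replicate 2, 4 or 5 (adjusted p 0.0133 to 0.0779 over single arrays left out) and without both replicates 1 and 2 (0.16). Sec24a, another paralogue, was at -0.039 ± 0.12, the inner coat GTPase activator Sec23b at -0.071 ± 0.11 and Sec13, the partner of Sec31a in the cage, at -0.062 ± 0.13; these did not pass.

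In AcB61, 2 of the 7 COPII genes passed, beside 23.8% of all features. Sec31a (-0.18 ± 0.12, adjusted p = 0.0409) and Sec24d (-0.13 ± 0.092, adjusted p = 0.0442) passed. Each call was lost without any of several single arrays, with adjusted p up to 0.103 for Sec31a (AcB61 replicates 2, 4, 5, 6, 7 or 8, or AcB55 replicate 5) and up to 0.118 for Sec24d (AcB61 replicates 2 to 8, or AcB55 replicates 1, 4 or 5). Sec24c was at -0.16 ± 0.23, Sec16a at -0.039 ± 0.12, Sec13 at 0.11 ± 0.24, Sec23b at 0.0051 ± 0.14 and Sec24a at -0.0093 ± 0.17. Sec24c in AcB61 divided by array: replicates 3, 5 and 7 lay between 0.056 and 0.11, and the other 5 between -0.47 and -0.11. Sec16a was the only COPII gene that differed between the strains. It was higher in AcB61 than in AcB55 by 0.28 (SE 0.069, adjusted p = 0.0141), and the AcB61 arrays, from -0.17 to 0.16, did not overlap those of AcB55.

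The stretch of 250 bases upstream of the annotated start is shown for these 3 COPII genes, since they fell together in AcB55. The sequences are those of the RefSeq table for build GRCm38.p6, printed 5′ to 3′ on the gene's strand: Sec16a at chr2:26445217-26445466 (minus strand), Sec24c at chr14:20674071-20674320 (plus strand) and the upstream start of the 2 listed for Sec31a at chr5:100416235-100416484 (minus strand). Capitals mark 4 motifs that were searched on both strands. The E-box was CACGTG. The motif of GATA factors was AGATAA. The CCAAT box was CCAAT. The core of the cyclic AMP response element was TGACGT.
Sec16a: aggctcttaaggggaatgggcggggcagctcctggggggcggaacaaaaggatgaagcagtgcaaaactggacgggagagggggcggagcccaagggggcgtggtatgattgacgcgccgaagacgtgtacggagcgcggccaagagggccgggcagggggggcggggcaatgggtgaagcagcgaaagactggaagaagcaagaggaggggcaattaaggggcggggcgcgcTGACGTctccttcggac
Sec24c: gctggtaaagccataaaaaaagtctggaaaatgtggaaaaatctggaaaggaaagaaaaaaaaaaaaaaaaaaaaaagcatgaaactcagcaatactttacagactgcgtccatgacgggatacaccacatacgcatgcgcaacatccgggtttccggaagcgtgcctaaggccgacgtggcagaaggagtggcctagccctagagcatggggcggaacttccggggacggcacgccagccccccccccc
Sec31a: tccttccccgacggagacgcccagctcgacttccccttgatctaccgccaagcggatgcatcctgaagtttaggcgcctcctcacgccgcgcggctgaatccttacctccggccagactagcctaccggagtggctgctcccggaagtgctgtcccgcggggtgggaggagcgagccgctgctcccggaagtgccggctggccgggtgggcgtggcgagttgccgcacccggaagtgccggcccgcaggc
Of these 3 stretches only that of Sec16a held a match, 1 TGACGT close to the start. Over the 156 promoters listed for 131 of the trafficking genes, CACGTG occurred in 12.2% (6.02% of all 32851 promoters of that length), TGACGT in 10.9% (6.47%), CCAAT in 34.6% (33.8%) and AGATAA in 4.49% (9.99%). These are descriptions of the reference sequence, and promoters of the strains themselves were not analysed here.

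Of the COPI coat, 2 of 6 genes fell in AcB55 (10.9% of all features) and 1 rose in AcB61 (10.5%). Cope, the epsilon subunit of coatomer, ranged from -0.39 to -0.080 in AcB55 with a median of -0.15 (mean -0.18 ± 0.11, adjusted p = 0.00816). In AcB61 it stayed between -0.062 and 0.085 (0.0031 ± 0.050). The ranges did not overlap, although the difference of 0.19 did not pass (adjusted p = 0.0567). Its 2 probes gave -0.033 and -0.33 in AcB55. Copa, the alpha subunit, was lower in AcB55 (-0.23 ± 0.10, adjusted p = 0.019), a call lost without replicate 2, 5 or 6 (adjusted p 0.0115 to 0.0687 over single arrays left out) and without replicates 1 and 2 together (0.11). Copz1, the zeta subunit, rose in AcB61 (0.36 ± 0.35, adjusted p = 0.00967), and here the array sets stood apart. Its mean was 0.76 on AcB61 replicates 2, 6 and 8 and 0.057 on replicates 3, 5 and 7, and without the former the adjusted p was 0.294. The remaining subunits did not pass: Copb2 was at 0.10 ± 0.074 and 0.062 ± 0.14 in AcB55 and AcB61, Copg1 at 0.10 ± 0.10 and -0.018 ± 0.14, and Copg2 at -0.073 ± 0.089 and 0.0010 ± 0.23.

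Among the 4 genes of the translocon and signal peptidase, Sec11c, a catalytic subunit of the peptidase that removes signal sequences, fell in AcB55. Its arrays ranged from -0.71 to -0.22 around -0.38 (mean -0.41 ± 0.19, adjusted p = 0.00475). In AcB61 it was at -0.10 ± 0.31 (-0.65 to 0.31), so the ranges overlapped. Sec62, a translocon partner, passed in AcB61 (0.23 ± 0.27, adjusted p = 0.0354), and the call was lost without AcB61 replicate 1, 2, 6 or 8 (adjusted p up to 0.106) and without replicates 2, 6 and 8 together (0.681). Sec63 (0.0099 ± 0.10 and -0.0032 ± 0.11) and Sec61a2 (0.076 ± 0.12 and 0.090 ± 0.16) did not pass in either strain.

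The adaptor complexes AP-1 to AP-4 did not move together. AP-2 gathers cargo for endocytosis at the plasma membrane, and 2 of its 4 measured genes rose in AcB61 (10.5% of all features). Its large subunit Ap2a1 ranged from 0.059 to 0.97 in AcB61 with a median of 0.47 (mean 0.46 ± 0.32, adjusted p = 0.00084), against -0.16 to 0.29 around 0.040 in AcB55. The medium subunit Ap2m1, which reads sorting signals, ranged from 0.010 to 0.54 around 0.26 (mean 0.30 ± 0.18, adjusted p = 0.00164), against -0.19 to 0.17 in AcB55. All 8 AcB61 arrays were above 0 for both, and both calls against A/J held under every alternative tried. The small subunit Ap2s1 was at 0.13 ± 0.14 in AcB61 and -0.15 ± 0.19 in AcB55, neither past the test, and Ap2a2, the paralogue of Ap2a1, was at 0.012 ± 0.13 and -0.012 ± 0.15, not past either. Between the strains 3 of the 4 AP-2 genes were higher in AcB61, beside 5.29% of all features. They were Ap2a1 (by 0.41, SE 0.13, adjusted p = 0.0477), Ap2m1 (by 0.32, SE 0.092, 0.0304) and Ap2s1 (by 0.28, SE 0.089, 0.0496). These differences lay close to the threshold. They were lost without AcB55 replicate 3, 4, 5 or 6 for each gene, and for Ap2a1 also without AcB61 replicate 2, 3, 4, 6 or 7 and for Ap2s1 without AcB55 replicate 1 or AcB61 replicates 1 to 7. The adjusted p with a single array left out reached 0.117 for Ap2a1, 0.0823 for Ap2m1 and 0.131 for Ap2s1.

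AP-3, which sorts cargo to lysosomes and related granules such as the dense granules of platelets, contained the gene with the largest strain difference. Ap3d1, its delta subunit, ranged from -0.21 to 1.92 in AcB55 with a median of 0.54 (mean 0.65 ± 0.78) and from -0.82 to -0.22 in AcB61 with a median of -0.36 (mean -0.40 ± 0.19). All AcB61 arrays were below 0, and 5 of 6 AcB55 arrays were above it. The lowest AcB55 array (-0.21) lay just above the highest AcB61 array (-0.22). AcB61 was lower by 1.04 (SE 0.24, adjusted p = 0.00984), and leaving out any single array kept this call. The rise over A/J in AcB55 passed (adjusted p = 0.015) but depended on few arrays. The mean was 0.57, 0.39 and 0.60 without replicate 3, 4 or 5, each no longer past the test (adjusted p up to 0.0574), and 0.23 without replicates 3 and 4, whose titles carry the letter b (0.28). It also missed the threshold with only the AcB55 arrays fitted (0.053). The AcB61 mean did not pass (0.0755). Its SD in AcB55 was the largest of the 158 genes. The other AP-3 subunits did not pass in either strain: Ap3b2 was at -0.11 ± 0.10 and -0.016 ± 0.18 in AcB55 and AcB61, Ap3m1 at -0.22 ± 0.23 and 0.075 ± 0.32, Ap3s1 at 0.16 ± 0.20 and 0.073 ± 0.20, and Ap3s2 at -0.074 ± 0.24 and -0.031 ± 0.28.

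AP-1, which works between the trans-Golgi network and endosomes, had subunits moving in both directions in AcB55. Ap1b1, the beta subunit, rose (0.15 to 0.64, median 0.30, mean 0.33 ± 0.17, adjusted p = 0.00542). Ap1g2, a gamma subunit, fell (-0.34 to -0.13, median -0.17, mean -0.21 ± 0.098, adjusted p = 0.00718), as did the sigma subunit Ap1s1 (-0.21 ± 0.14, adjusted p = 0.0151; lost without AcB55 replicate 5 or 6, up to 0.0681). In AcB61 none of the 6 AP-1 genes passed, with means from -0.13 for Ap1g1 to 0.13 for Ap1b1. Without AcB55 replicates 1 and 2 the rise of Ap1b1 was lost (adjusted p = 0.0951, within 0.000657 to 0.0951 over all alternatives). Ap1g1, Ap1m1 and Ap1m2 lay between -0.090 and 0.062 in AcB55. The AP-4 genes Ap4m1 (0.028 ± 0.091 and 0.087 ± 0.16) and Ap4s1 (-0.14 ± 0.094 and -0.037 ± 0.17) did not pass in either strain.

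**Figure D2:**
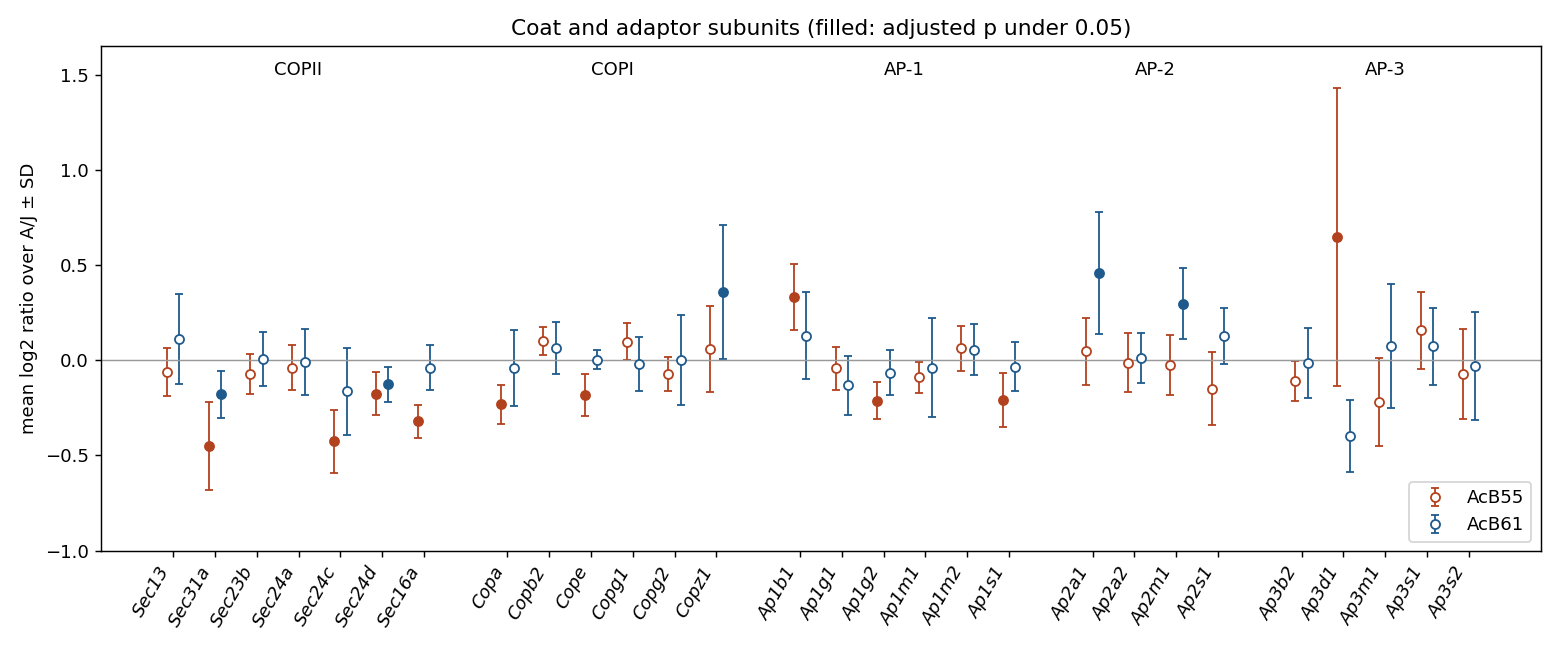
Mean log2 ratio of strain over A/J (vertical axis) with SD over arrays for the subunits of COPII, COPI, AP-1, AP-2 and AP-3 in AcB55 and AcB61; filled points passed the test. COPII subunits in AcB55 sit below 0, Ap2a1 and Ap2m1 are above 0 in AcB61 (0.46 and 0.30), and Ap3d1 has the widest error bar, 0.78 in AcB55.

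Rab GTPases recruit the effectors that give each compartment its identity. Of 26 measured, 2 rose and 3 fell in AcB55 (9.77% and 10.9% of all features), and 2 rose and 5 fell in AcB61 (10.5% and 13.3%). All 5 that differed between the strains were lower in AcB61 (6.98% of all features). Rab6a, the Rab of the Golgi, had the largest change of the family. On AcB55 arrays it ranged from 0.22 to 1.04 with a median of 0.59 (mean 0.63 ± 0.27, or 1.55-fold, adjusted p = 2.21e-05). On AcB61 arrays it ranged from -0.11 to 0.30 around 0.11 (mean 0.097 ± 0.16), and only the lowest AcB55 array lay within that range. AcB61 was lower by 0.54 (SE 0.11, adjusted p = 0.00446).

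Rab11b, a Rab of recycling endosomes, lay on opposite sides of A/J in the strains. It ranged from 0.025 to 0.20 in AcB55 around 0.16 (mean 0.13 ± 0.075, not past the test, adjusted p = 0.0893) and from -0.41 to -0.046 in AcB61 around -0.23 (mean -0.22 ± 0.13, adjusted p = 0.00182). No arrays overlapped, and AcB61 was lower by 0.35 (SE 0.070, adjusted p = 0.00445). Its 2 probes gave nearly the same difference, -0.35 and -0.36. Their SDs on AcB61 arrays were 0.37 and 0.15, each above the 0.13 of their mean, so they varied differently by array. The lack of overlap holds for the mean of the probes and was not examined for each probe. The paralogue Rab11a did not pass (-0.022 ± 0.14 and -0.057 ± 0.075), nor did any of 4 Rab partner genes such as Rab11fip1 (-0.014 ± 0.16 and -0.011 ± 0.11).

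The other 3 Rab genes that were lower in AcB61 than in AcB55 were less stable. Rab12, linked to recycling and degradation of receptors, ranged from -0.68 to -0.25 in AcB61 around -0.41 (mean -0.44 ± 0.14, adjusted p = 0.000257) and from -0.40 to 0.36 in AcB55 (mean -0.047 ± 0.29). Its 2 probes disagreed, at -0.29 and 0.19 in AcB55 and -0.19 and -0.69 in AcB61. Rab3b, of the family that acts in regulated secretion, ranged from -0.72 to -0.057 in AcB61 (mean -0.36 ± 0.24, adjusted p = 0.00155), with 0.048 ± 0.18 in AcB55. Rab13, a Rab of cell junctions and surface delivery, fell in AcB61 (-0.24 ± 0.086, n = 7, adjusted p = 0.00631), with 0.057 ± 0.19 in AcB55. The differences were -0.39, -0.40 and -0.29 (adjusted p = 0.0265, 0.024 and 0.0331). They were lost without AcB55 replicate 3, 5 or 6 for Rab12 (up to 0.0742), without AcB55 replicate 5 or 6 for Rab3b (up to 0.0707), and without AcB55 replicate 1, 4, 5 or 6 or AcB61 replicate 4, 5 or 8 for Rab13 (up to 0.0859).

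Further Rab genes changed against A/J without a strain difference that passed. Rab10, of exocytosis and surface delivery, rose in AcB55 (0.23 to 0.68, median 0.38, mean 0.41 ± 0.15, adjusted p = 0.00193). In AcB61 it was at 0.20 ± 0.27 (0.0635), with a mean of 0.51 on replicates 2, 6 and 8 and -0.017 on replicates 3, 5 and 7. Rab29 and Rab32, which act at lysosome-related organelles, fell in AcB55 (-0.31 ± 0.099 and -0.21 ± 0.13, adjusted p = 0.00048 and 0.00767), as did Rab20 (-0.25 ± 0.13, 0.00747). In AcB61, Rab29 also passed (-0.14 ± 0.13, adjusted p = 0.0399), and this was lost without AcB55 replicate 4 or AcB61 replicate 1, 2, 3, 4, 6 or 7 (up to 0.109). Rab32 was at -0.019 ± 0.10 and Rab20 at -0.14 ± 0.16 (n = 7) in AcB61. Rab17 (0.26 ± 0.14, adjusted p = 0.00386) rose in AcB61 on all 8 arrays. Rab18, a Rab of lipid droplets, passed there (0.14 ± 0.13, 0.0355) but not without replicate 2, 6, 7 or 8 (up to 0.114). The Rab18 call was also lost with each probe fitted by itself (0.174) and with array quality weights (0.0773). Its 2 probes had SDs of 0.31 and 0.47 in AcB61, each above the 0.13 of their mean. Rab5a and Rab7, which mark early and late endosomes, did not pass (0.065 ± 0.12 and 0.036 ± 0.11 for Rab5a, 0.024 ± 0.17 and -0.056 ± 0.20 for Rab7). The 2 probes of Rab5a were called in opposite directions in AcB55 (0.36 and -0.23), so its mean there describes neither.

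Of the Arf and Arl GTPases, Arf4, which recruits coats at the Golgi, fell in AcB55 (-0.65 to 0.071, median -0.48, mean -0.42 ± 0.29, adjusted p = 0.00231), where 5 of 6 arrays were below 0, and was at -0.15 ± 0.20 in AcB61. Arf3 did not pass (-0.14 ± 0.22 and -0.072 ± 0.39). Arl2, a relative of the Arfs known for its work with tubulin folding cofactors, rose in AcB61 on all 8 arrays, from 0.25 to 0.86 with a median of 0.53 (mean 0.56 ± 0.20, adjusted p = 6.93e-06). On AcB55 arrays it ranged from -0.18 to 0.21 around 0.086 (mean 0.066 ± 0.15). The ranges did not overlap, and the difference was 0.50 (SE 0.096, adjusted p = 0.00373). Arl2 was about as high on AcB61 replicates 3, 5 and 7 (mean 0.45) as on replicates 2, 6 and 8 (0.52). Arl1, Arl3 and Arl14ep lay between -0.082 and 0.11 in both strains.

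The promoters of Ap3d1 (chr10:80742276-80742525, minus strand), Rab6a (chr7:100607336-100607585, plus strand), Arl2 (chr19:6141138-6141387, minus strand) and Snx33, the sorting nexin described below (chr9:56928372-56928621, minus strand), are shown as those of the 4 genes with the largest strain differences. They are from GRCm38.p6, with the same 4 motifs in capitals.
Ap3d1: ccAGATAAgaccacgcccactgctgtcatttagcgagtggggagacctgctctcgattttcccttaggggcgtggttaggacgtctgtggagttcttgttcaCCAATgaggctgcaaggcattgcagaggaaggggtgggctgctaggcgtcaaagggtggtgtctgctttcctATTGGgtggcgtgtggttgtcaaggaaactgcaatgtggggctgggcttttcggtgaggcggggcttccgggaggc
Rab6a: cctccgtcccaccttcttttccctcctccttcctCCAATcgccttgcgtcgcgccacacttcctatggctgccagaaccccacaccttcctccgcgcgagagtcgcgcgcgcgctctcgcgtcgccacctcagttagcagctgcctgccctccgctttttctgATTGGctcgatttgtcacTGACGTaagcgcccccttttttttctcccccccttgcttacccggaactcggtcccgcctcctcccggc
Arl2: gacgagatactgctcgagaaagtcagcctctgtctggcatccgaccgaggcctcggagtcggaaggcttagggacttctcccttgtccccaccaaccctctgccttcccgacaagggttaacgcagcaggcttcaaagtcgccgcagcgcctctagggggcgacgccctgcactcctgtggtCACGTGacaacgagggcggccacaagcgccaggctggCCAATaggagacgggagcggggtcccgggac
Snx33: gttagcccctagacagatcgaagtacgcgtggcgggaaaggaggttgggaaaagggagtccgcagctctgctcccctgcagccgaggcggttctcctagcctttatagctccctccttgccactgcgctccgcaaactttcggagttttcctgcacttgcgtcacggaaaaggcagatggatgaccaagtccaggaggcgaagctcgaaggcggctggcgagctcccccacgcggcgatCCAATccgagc
Each held a CCAAT motif, with 2 in Ap3d1 and in Rab6a (in both the match nearer the start reads ATTGG, on the other strand). Ap3d1 also held AGATAA, Rab6a TGACGT and Arl2 CACGTG. Only CCAAT was shared by all 4, and 33.8% of all promoters hold it.

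Of 23 measured tethers, not counting Vps8 and Vps50, 3 fell in AcB55 (10.9% of all features) and 1 rose in AcB61 (10.5%). Exoc6b, a subunit of the exocyst that docks secretory vesicles at the plasma membrane, ranged from -0.58 to -0.13 in AcB55 (mean -0.38 ± 0.19, n = 5, adjusted p = 0.00164) and from -0.18 to 0.28 in AcB61 (mean 0.0035 ± 0.16). AcB61 was higher by 0.38 (SE 0.098, adjusted p = 0.0188), and this was lost without AcB55 replicate 5 (0.0606; 0.00923 to 0.0606 over single arrays left out). Its partner Exoc4 passed in AcB61 (0.15 ± 0.10, adjusted p = 0.0233), but not without replicate 3, 5 or 7 (up to 0.0616) and not without all 3 (0.293). Exoc8 was at 0.087 ± 0.13 in AcB55 and -0.24 ± 0.34 in AcB61, and Exoc1, Exoc5, Exoc7 and the exocyst relatives Exoc3l2 and Exoc3l4 lay between -0.052 and 0.078 in both strains; none of these passed.

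Trappc3, of the core of the TRAPP tethers that activate Rab1, fell in AcB55 (-0.23 ± 0.16, adjusted p = 0.0119; 0.0636 without replicate 6, the highest over single arrays left out) and was at -0.020 ± 0.14 in AcB61. The other 7 TRAPP genes did not pass, from -0.14 for Trappc6b to 0.057 for Trappc11 in AcB55 and from -0.058 to 0.050 in AcB61 over all 8. Vps16, of the core shared by the lysosomal tethers HOPS and CORVET, fell in AcB55 (-0.67 to -0.10, median -0.37, mean -0.38 ± 0.19, adjusted p = 0.00842). In AcB61 it was at -0.062 ± 0.31. Its partners Vps11 (0.015 ± 0.12), Vps33a (0.065 ± 0.074), Vps39 (-0.19 ± 0.12), Vps41 (-0.071 ± 0.11) and Vps8 (0.0061 ± 0.053) did not pass in AcB55. The GARP and EARP genes Vps50, Vps51 and Vps54 lay between -0.10 and 0.18 in both strains without passing.

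Of 17 SNAREs, the proteins that drive fusion, 2 rose and 1 fell in AcB55 (9.77% and 10.9% of all features). In AcB61 1 SNARE rose and 1 fell (10.5% and 13.3%). Among syntaxins of the plasma membrane, Stx4a fell and Stx2 rose in AcB55, and Stx3 did not pass in either strain (0.018 ± 0.085 and 0.010 ± 0.15). Stx4a, the syntaxin of stimulated secretion, ranged from -0.69 to -0.30 in AcB55 around -0.45 (mean -0.48 ± 0.16, adjusted p = 0.00013), the lowest mean of the 158 genes there. Stx2 ranged from 0.20 to 0.71 around 0.46 (mean 0.46 ± 0.23, adjusted p = 0.00291). In AcB61 both kept these directions, at -0.23 ± 0.20 for Stx4a (adjusted p = 0.0124) and 0.37 ± 0.31 for Stx2 (0.00442), and both were farther from A/J on 1 set of arrays. Replicates 3, 5 and 7 averaged -0.46 and 0.71, replicates 2, 6 and 8 averaged -0.046 and 0.22, and without the former the adjusted p was 0.316 for Stx4a and 0.114 for Stx2. The fall of Stx4a in AcB55 held under every alternative, whereas the rise of Stx2 was lost without AcB55 replicates 1 and 2 (0.0731).

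Vamp8, a SNARE of late endosomes and of granule release in platelets and other blood cells, was higher in AcB61 than in AcB55 by 0.43 (SE 0.14, adjusted p = 0.0471) while passing in neither strain against A/J. It ranged from -0.58 to 0.080 in AcB55 (mean -0.24 ± 0.29) and from -0.21 to 0.58 in AcB61 (mean 0.19 ± 0.28), so the ranges overlapped. The call was lost without AcB55 replicate 3, 4, 5 or 6 or AcB61 replicate 1, 2, 3, 4, 5 or 7 (up to 0.127). Stx12, of endosomes, passed in AcB55 (0.14 ± 0.086, adjusted p = 0.0402), but not without AcB55 replicate 1, 2, 4, 5 or 6 or AcB61 replicate 4 (up to 0.124). Of the partner proteins, Stxbp2, which acts in granule release by cytotoxic cells and platelets, fell in AcB55 (-0.22 ± 0.20, adjusted p = 0.0202; lost without replicate 2, 3 or 6, up to 0.082). Snap23, the partner of Stx4a at the plasma membrane, was at 0.016 ± 0.11 and 0.019 ± 0.084. Platelet markers were 2 genes, and both fell in AcB61, such as Ppbp (-0.63 ± 0.48), while neither passed in AcB55 (Ppbp -0.32 ± 0.55); their part in these values was not tested.

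Retromer lifts receptors out of endosomes, and its subunits moved in opposite directions in AcB55. Vps35, its backbone, rose there (0.24 to 0.51, median 0.47, mean 0.41 ± 0.11, adjusted p = 0.000738) on all 6 arrays and under every alternative. Vps29, which sits on Vps35, fell (-0.26 ± 0.22, adjusted p = 0.0278), with replicates 1, 4, 5 and 6 between -0.44 and -0.37 and replicates 2 and 3 at -0.052 and 0.072, and the call was lost without replicate 1, 4, 5 or 6 (up to 0.0998). Vps26a (0.075 ± 0.052) and Vps26b (0.11 ± 0.094) did not pass. In AcB61 Vps35 passed (0.24 ± 0.24, adjusted p = 0.0127), with means of 0.51 on replicates 3, 5 and 7 and 0.040 on replicates 2, 6 and 8, and was lost without the former (0.318). Vps29 (0.0096 ± 0.22), Vps26a (0.035 ± 0.069) and Vps26b (0.0034 ± 0.11) were near A/J.

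Sorting nexins bind endosomal lipids, and some bend the membrane into the tubules that recycle cargo. Of 16, 1 rose and 3 fell in AcB55 (9.77% and 10.9% of all features), and 3 rose and 1 fell in AcB61 (10.5% and 13.3%). Snx33, a nexin with an SH3 domain that takes part in endocytosis, rose most of the 158 genes in AcB61. It ranged from 0.49 to 0.95 with a median of 0.80 (mean 0.76 ± 0.19, or 1.70-fold, adjusted p = 3.57e-06). In AcB55 it ranged from -0.31 to 0.49 around 0.029 (mean 0.075 ± 0.31), with replicates 1 and 2 at 0.49 and 0.36 as the highest arrays and replicate 1 just reaching the AcB61 range. The difference was 0.69 (SE 0.12, adjusted p = 0.00232). Within AcB61 it was 0.94 on replicates 3, 5 and 7 and 0.56 on replicates 2, 6 and 8, above A/J on both. Snx29 also rose in AcB61 (-0.082 to 0.50, median 0.35, mean 0.27 ± 0.20, adjusted p = 0.00277) and exceeded AcB55 (-0.054 ± 0.10) by 0.32 (SE 0.089, 0.0267), a difference lost without AcB55 replicate 3, 5 or 6 or AcB61 replicate 1 or 4 (up to 0.0686).

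Of the nexins that form recycling tubules, Snx5 passed in both strains and Snx6 in AcB55 alone. Snx5 ranged from -0.41 to -0.061 in AcB55 (mean -0.28 ± 0.12, adjusted p = 0.00351), and was also lower in AcB61 (-0.22 ± 0.17, adjusted p = 0.00624; 0.119 without AcB61 replicates 2, 6 and 8, the highest of its alternatives). Its partner Snx6 fell in AcB55 (-0.55 to -0.13, median -0.36, mean -0.34 ± 0.19, adjusted p = 0.0038) and was at -0.18 ± 0.22 in AcB61 (0.0661). Their relative Snx32 did not pass (0.070 ± 0.16 and 0.045 ± 0.15). Snx8 fell in AcB55 (-0.25 ± 0.24, adjusted p = 0.0298; lost without replicate 2 or 6, up to 0.135), whereas Snx15 rose (0.40 ± 0.27, 0.00215; 0.0625 without replicates 1 and 2, the highest of its alternatives). Snx3, the nexin that recruits retromer by itself, passed in AcB61 (0.21 ± 0.24, 0.044), with a call that was lost without AcB55 replicate 1, 3, 4 or 5 or AcB61 replicate 1, 2, 6 or 8 (up to 0.123). Snx14, of lipid handling, had no shift in either strain (-0.081 ± 0.27 and -0.068 ± 0.49), yet averaged 0.43 on AcB61 replicates 3, 5 and 7 and -0.57 on replicates 2, 6 and 8.

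ESCRT complexes pinch vesicles into the lumen of endosomes on the way to the lysosome. Of 13 genes, 3 fell in AcB55 (10.9% of all features), 2 fell in AcB61 (13.3%) and none rose. Chmp2a, a late subunit of the ESCRT-III filament, ranged from -0.66 to 0.0071 in AcB55 (mean -0.35 ± 0.25, n = 5, adjusted p = 0.00705) and from -0.095 to 0.29 in AcB61 (mean 0.095 ± 0.17, n = 7). AcB61 was higher by 0.44 (SE 0.11, adjusted p = 0.0182), lost only without AcB55 replicate 6 (0.0588) among single arrays, and over all alternatives the adjusted p ran from 0.00417 to 0.311. Its paralogue Chmp2b was at -0.15 ± 0.17 in AcB55 and passed in AcB61 (-0.20 ± 0.23, adjusted p = 0.0455). That call was lost without AcB61 replicate 1, 3, 4, 5 or 7 or AcB55 replicate 1, 3, 4 or 6 (up to 0.143) and without AcB61 replicates 3, 5 and 7 together (0.678).

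Vps4b, the ATPase that takes the filament apart, fell by a similar amount in both strains (-0.18 ± 0.058, adjusted p = 0.0129, and -0.17 ± 0.12, 0.00697), with all AcB55 arrays and 7 of 8 AcB61 arrays below 0. The 95% interval of the strain difference ran from -0.13 to 0.15. The paralogue Vps4a did not pass (0.019 ± 0.12 and -0.049 ± 0.086). Chmp7, known for sealing the nuclear envelope, fell in AcB55 (-0.21 ± 0.091, adjusted p = 0.0184; lost without replicate 3, 4 or 6, up to 0.063) and was at -0.049 ± 0.16 in AcB61. The remaining 8 genes (Chmp1a, Chmp1b, Chmp4b, Chmp5, Chmp6, Vps25, Vps28 and Vps37c) did not pass, and lay between -0.17 and 0.024 in AcB55 and between -0.18 and 0.20 in AcB61.

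**Figure D3:**
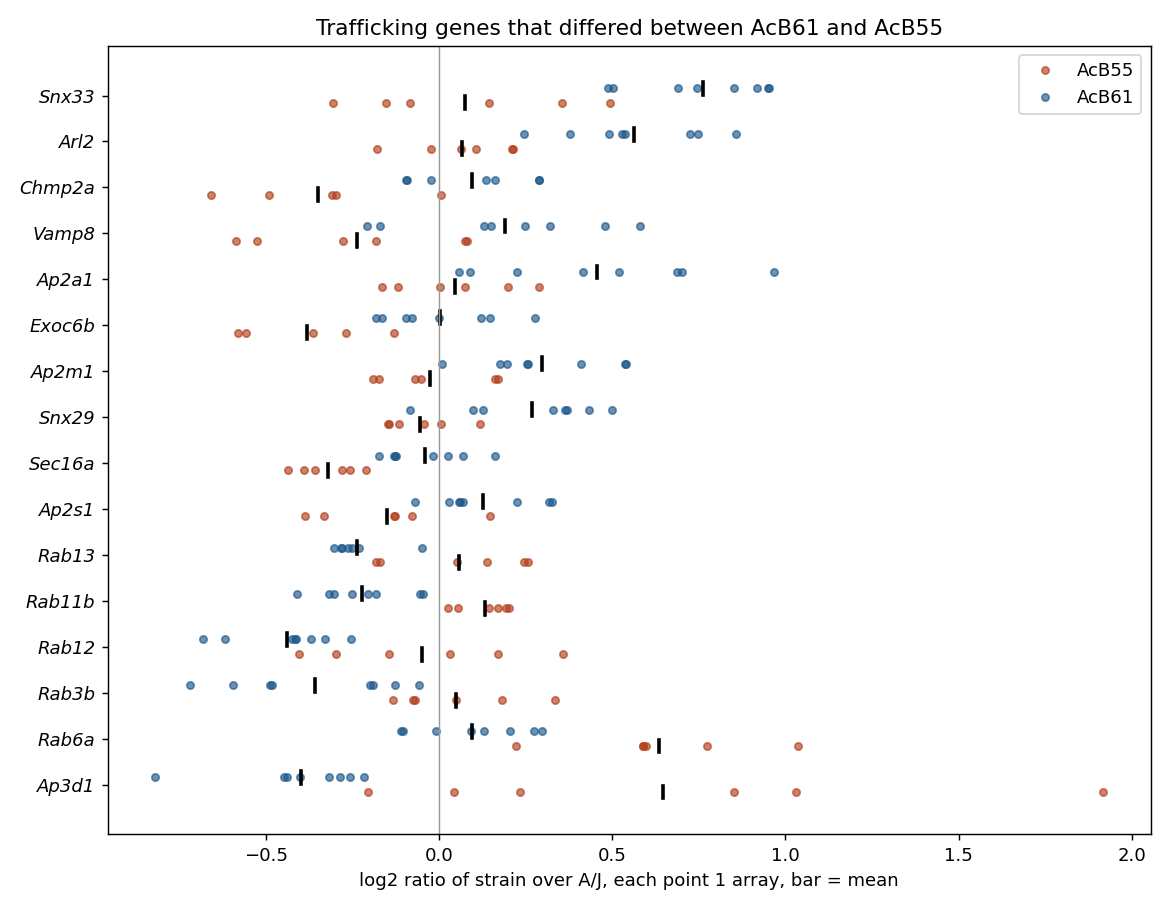
Log2 ratio of strain over A/J (horizontal axis) on every array for the 16 genes that differed between AcB55 and AcB61 (adjusted p under 0.05), with a bar at each strain's mean. The points of Ap3d1, Arl2, Rab11b and Sec16a do not overlap between the strains, and those of Ap3d1 in AcB55 spread from -0.21 to 1.92.

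Among the 13 genes counted outside the role groups, Vps8 and Vps50 included, 2 of the 3 Vps13 genes fell in AcB55. These are long proteins that pass lipids between membranes. Vps13d was at -0.28 ± 0.25 (adjusted p = 0.00692). Vps13b was at -0.19 ± 0.092 (n = 5, adjusted p = 0.0213), a call lost without replicate 2 or 5 (up to 0.0957). Vps13a was at 0.046 ± 0.10. Sec23ip, which binds the COPII protein Sec23, rose in AcB55 (0.27 ± 0.16, adjusted p = 0.00418), opposite to the COPII genes that fell there. Sec14l2 passed in AcB55 (0.46 ± 0.35, adjusted p = 0.0335) but not without replicate 1, 4, 5 or 6 (up to 0.121), and in AcB61 it averaged 0.83 on replicates 3, 5 and 7 and -0.096 on replicates 2, 6 and 8. Vps72 rose in AcB61 (-0.053 to 0.98, median 0.59, mean 0.46 ± 0.36, adjusted p = 0.0014), with 0.77 on replicates 2, 6 and 8 and 0.055 on replicates 3, 5 and 7. The commander subunits Vps26c and Vps35l lay between -0.15 and 0.041.

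The split of the AcB61 arrays ran through the trafficking genes as it did through the rest. Of 154 genes measured on all 6 arrays, 95 (61.7%) had ranges that did not overlap between replicates 3, 5 and 7 and replicates 2, 6 and 8, beside 55.4% of all features. The direction differed by gene, since Snx14, Sec14l2, Vps35 and Stx2 were higher on replicates 3, 5 and 7, and Copz1, Vps72 and Rab10 on replicates 2, 6 and 8. These sets were picked from the correlations of the same values, so separation between them was built in. What the sets share is not given in the labels. Without replicates 3, 5 and 7, 9 of the 25 calls against A/J in AcB61 were lost, among them Rab13 (adjusted p = 0.0655) and Vps4b (0.0681). Without replicates 2, 6 and 8, 11 were lost, among them Rab11b (0.0507), Snx29 (0.0666), Vps4b (0.0633), Rab29 (0.103), Rab18 (0.391), Snx3 (0.683), Sec24d (0.402) and Sec31a (0.209). Of the 16 strain differences, the first omission lost 7 (Ap2a1, Ap2m1, Ap2s1, Rab12, Rab13, Rab3b and Vamp8, 0.064 to 0.16) and the second 3 (Ap2s1, Chmp2a and Snx29, 0.0634 to 0.0876). Leaving out AcB55 replicates 1 and 2 lost 16 of the 37 AcB55 calls (0.0581 to 0.198), among them Sec23ip, Snx6, Vps13d and Vps4b. Leaving out AcB55 replicates 3 and 4, the arrays marked b, lost 13 of the 37 (0.0585 to 0.28). Among those lost were Vps16 (0.0726), Rab20 (0.0792), Chmp2a (0.0833), Cope (0.0965), Ap1g2 (0.0672), Vps13d (0.107) and Vps4b (0.0585). With these arrays left out 18 genes were called lower and 8 higher in AcB55, including some not among the 37. Between the strains, 5 of 158 genes (3.16%) had ranges that did not overlap (Ap3d1, Arl2, Cope, Rab11b and Sec16a), beside 2.67% of all features.

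**Figure D4:**
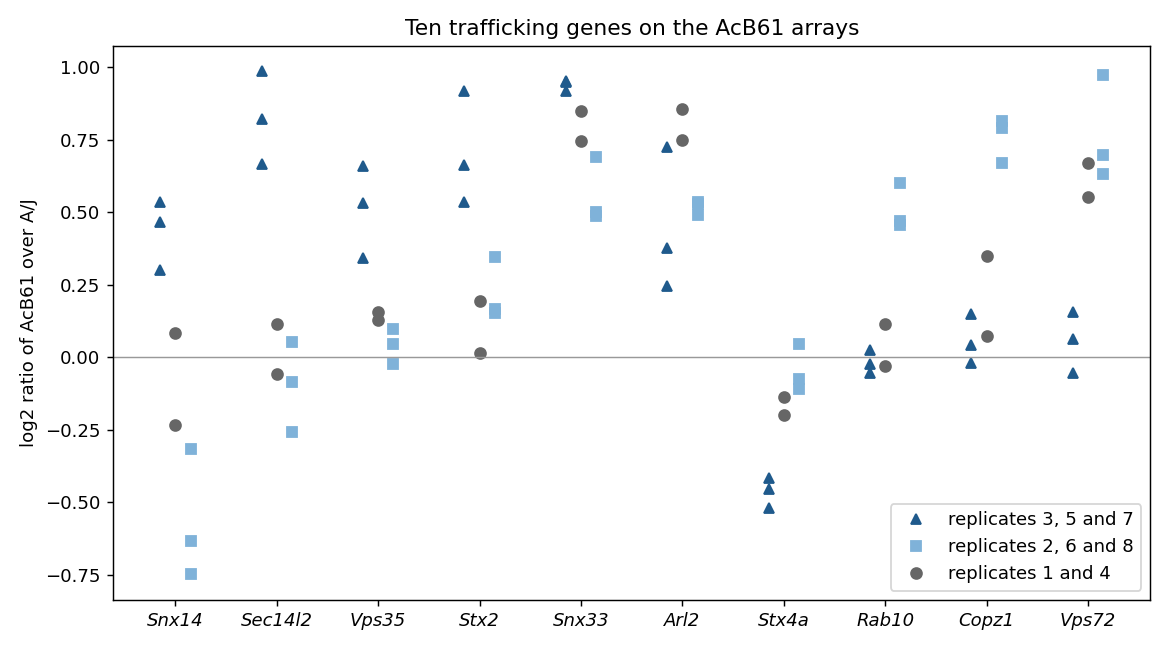
Log2 ratio of AcB61 over A/J (vertical axis) on each of the 8 AcB61 arrays for 10 genes. For each gene, replicates 3, 5 and 7 are on the left, 1 and 4 in the middle and 2, 6 and 8 on the right. The genes were chosen after their values were seen. Snx14 has a mean of 0.43 on replicates 3, 5 and 7 and -0.57 on replicates 2, 6 and 8. Arl2 (0.45 and 0.52) and Snx33 (0.94 and 0.56) stay above 0 on every array.

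Trafficking genes whose symbols the rule does not take in were described from a list of 116, of which 77 were measured. In AcB55, 21 of the 77 (27.3%) fell, 4 (5.19%) rose and 52 did not pass, with a median of -0.063, where 10.9% of all features were lower and 9.77% higher. In AcB61, 6 (7.79%) fell and 6 rose (median -0.021), beside 13.3% and 10.5% of all features. Between the strains 12 (15.6%) were higher and 3 (3.90%) lower in AcB61 (median 0.059), beside 5.29% and 6.98%. This list was not recomputed without any arrays. Tmed9, a cargo receptor between the endoplasmic reticulum and the Golgi, had the largest fall in AcB55 (-1.26 to -0.55, median -1.10, mean -1.004 ± 0.29). It also fell in AcB61 (-0.39 ± 0.34), and the strains differed by 0.61. The fusion factor Use1, a SNARE of the endoplasmic reticulum, fell in AcB55 (-0.64 ± 0.15), and Gga2, a clathrin adaptor of the trans-Golgi network, did so too (-0.57 ± 0.22), with AcB61 higher by 0.54 and 0.44. Rises in AcB55 were those of Cltc, the clathrin heavy chain (0.59 ± 0.16), Tmed3 (0.48 ± 0.29) and Napa, which recycles SNAREs (0.33 ± 0.17). In AcB61 Napa (0.35 ± 0.21), Cyth3 (0.29 ± 0.18) and Rabggtb (0.28 ± 0.25) rose most, and Rabac1 (-0.43 ± 0.33), Tmed9 and the Golgi matrix protein Golga2 (-0.27 ± 0.25) fell most. Tmed3, Cltc and Arfgef1 were lower in AcB61 than in AcB55, by -0.39, -0.36 and -0.26.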

How the data were processed

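Per the labels' protocols, RNA was extracted with TRIzol, reverse transcribed and labelled (Cy3, Cy5), scanned with ScanArray, quantified with QuantArray 3.0 and imported into GeneSpring. The deposited table holds 1 log2 ratio of the channels per feature and array, with 14197 to 14588 values per array. The log base, normalization, centring and dye swaps are not given in the sources used here, and array medians lay near 0, so values were used as deposited. Spot intensities were not used here, so signal over background is unknown, and cross-hybridisation between paralogues was not tested. Names came from the platform annotation (7849 probes with 1 symbol, 356 with several, 6407 with none), and all 158 gene IDs were found in the RefSeq table.

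Where a gene had several probes their mean per array was used. Features with values on 3 or more arrays in both strains entered the test (13045 features). R 4.3.3 and limma 3.58.1 fitted a mean per strain over all 14 arrays, with eBayes. The means were tested against 0, as was the difference AcB61 minus AcB55, with Benjamini-Hochberg adjustment. The code was tested on simulated data. Figures used Python 3.11.15 and matplotlib 3.10.9.

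The members, roles and lists were chosen with earlier results of these data known, so a list is described by counts and medians and not tested. Named were up to 12 called genes per direction and comparison, all measured members of the coats, adaptors, tethers, retromer and ESCRT described, and paralogues or partners of called genes. From the related trafficking list up to 3 genes per direction were named, and from cell type lists up to 2. Genes named for a split between AcB61 arrays were chosen after their values were seen. The exocrine pancreas list was measured by Cpa1 alone (-1.42 ± 2.29, n = 5, in AcB55 and -0.27 ± 0.46 in AcB61, not past the test). In AcB55, 1 of 4 granulocyte genes rose, and in AcB61 2 rose and 1 fell. Alternatives covered centring, scaling, probe summaries, filters, array weights, the arrays fitted, the number in the array titles as a random block, and each array left out. Leaving out AcB61 replicates 3, 5 and 7, AcB61 replicates 2, 6 and 8, or AcB55 replicates 1 and 2 was added after seeing the data.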

Additional observations from a re-analysis of the deposited data

Results flagged for a closer look

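A single array stood far from the rest of its strain for 4 genes, among 112 sets of a called gene and a strain. Chance would mark about 1 set in 20. Ap3d1 was at -0.82 on AcB61 replicate 4, with the other AcB61 arrays between -0.45 and -0.22. Rab32 was at -0.47 on AcB55 replicate 4, with the others between -0.22 and -0.075. Rab13 was at -0.050 on AcB61 replicate 1, where the others lay between -0.30 and -0.23. Rab18 was at 0.15 on AcB55 replicate 1, with the others between -0.069 and 0.0052.

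A difference between the strains passed limma's test (adjusted p under 0.05) for 16 genes. In log2, AcB61 was above AcB55 by 0.69 for Snx33, 0.50 for Arl2, 0.44 for Chmp2a, 0.43 for Vamp8 and 0.41 for Ap2a1. Smaller differences in that direction were those of Exoc6b (0.38), Ap2m1 (0.32), Snx29 (0.32), Sec16a (0.28) and Ap2s1 (0.28). AcB61 minus AcB55 was -1.04 for Ap3d1, -0.54 for Rab6a, -0.40 for Rab3b, -0.39 for Rab12, -0.35 for Rab11b and -0.29 for Rab13. Ap3d1, Arl2, Rab11b, Rab6a, Sec16a and Snx33 kept the call with any single array left out, and the other 10 lost it without at least 1 array.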

How the results depend on the processing

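No call of a named gene reversed under any alternative. Of the calls against A/J, 13 of 37 in AcB55 and 8 of 25 in AcB61 held under all of them. Of the 16 strain differences, 0 held under all. None passed with only AcB55 replicates 2 to 4 and AcB61 replicates 6 to 8, a small fit that called 3 of 13026 features. Under every other alternative Ap3d1, Arl2, Rab11b, Rab6a, Sec16a and Snx33 kept the call. With each probe fitted by itself, a gene was scored by its probe with the lowest adjusted p. Genes with probes called in opposite directions were left out there. That alternative therefore favours keeping a call. Rab12 was kept there with a strain difference of -0.88, although its other probe gave 0.099. The number of genes higher in AcB61 than in AcB55, 10, became 20 with array quality weights, 3 without arrays marked b in their titles, 18 without AcB61 replicates 3, 5 and 7 and 18 without AcB61 replicates 2, 6 and 8, and ran from 4 to 12 with single arrays left out. With only AcB55 replicates 2 to 4 and AcB61 replicates 6 to 8, whose title numbers begin alike, limma called 0 genes higher and 0 lower after adjustment and 9 of 158 at an unadjusted p under 0.05 (3 and 1378 of 13026 features). All 16 genes that differed between the strains kept their direction there, from -1.30 for Ap3d1 to 0.73 for Snx33. Genes lower in AcB61 than in AcB55 numbered 6, and 3 to 7 with single arrays left out. Genes higher in AcB55 than in A/J numbered 10, but 4 without AcB55 replicates 1 and 2 and 7 to 10 with single arrays left out. With single arrays left out there were 20 to 29 genes lower in AcB55, 7 to 12 lower in AcB61 and 11 to 15 higher in AcB61. The causes were not tested. With the title number as a random block the consensus correlation was -0.032. No paired analysis was possible because the labels carry no replicate numbers. Spot intensity, which would show how far dim probes limit these values, was not used here.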
